A study of Mus musculus with 20 samples.

Results

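Of the 19463 genes in the expression table, 43 were followed here: regulators of chromatin and transcription whose human counterparts are linked to autism and related neurodevelopmental disorders. The members were taken from a list of gene symbols, and all 43 were found by matching Ensembl identifiers to symbols. They comprise 4 CHD remodelers, 7 proteins of the BAF complex, 4 members of the H3K4 methyltransferase family, 6 other methyltransferases, 4 demethylases or deacetylases, 5 readers or scaffolds, 8 coactivators or corepressors, and 5 DNA-binding or architectural proteins.

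The RNA came from whole brains of male C57BL/6J mice in 4 groups, WT and Katnal2-KO at P21 (3 weeks) and WT and Katnal2-KO at P70 (10 weeks), with 5 mice per group and 20 in all. Katnal2 is a microtubule-regulatory protein linked to autism, and the comparison of KO with WT at both ages asked how its loss shifts brain expression. The KO mice carry a homozygous frame-shifting deletion of exon 3 in every cell of the body. The allele, Katnal2tm1a(EUCOMM)Wtsi, came from 1 targeted ES cell source, its cassette was removed by Protamine-Flp and its exon by HTNC, a cell-permeable Cre added to embryos, and the line was backcrossed to C57BL/6J for over 5 generations, so the KO groups represent 1 deletion allele.

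DNA in the nucleus is wound around histones, and the proteins encoded by these genes move nucleosomes, write, erase or read chemical marks on histone tails, or carry those signals to RNA polymerase II. Most are expressed in every cell type, and many are dosage sensitive: loss of 1 copy is enough to cause a human neurodevelopmental syndrome. In the brain they are best known for roles in neural progenitors and in the maturation of neurons, and several complexes exchange subunits when progenitors leave the cell cycle.

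The tissue was checked first. All 8 markers of mature neurons were abundant in every group, the lowest group mean being 6478 normalized counts for Gad2, while of 6 markers of other tissues only Myh6 and Sftpc were listed, at no more than 70.8 and 19.9 normalized counts. Katnal2 itself was low in both genotypes. It ranged from 99.3 to 115 normalized counts (median 108) in P21 WT and from 78.1 to 96.0 (median 94.0) in P21 KO mice, which did not overlap, and from 101 to 141 (median 125) in P70 WT and from 95.1 to 125 (median 100.4) in P70 KO mice, which did. A deletion of 1 exon leaves the rest of the transcript countable, so gene-level counts check these labels only in part.

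Members varied together within groups, and 4 mice stood apart from the others of their groups. For each mouse, the log2 value of every gene was set against the mean of the other 4 mice of its group. In the replicate 5 mice at P70, the median deviation over the 43 members was -0.26 in WT and -0.29 in KO, with 35 and 36 members below the others, and 29 members were below all 4 other mice in both animals. Chd3, Smarca4 and Kdm6b went the other way and were above all 4 other mice in both. The median over all genes tested was 0.02 in both animals, but over the 743 genes with a transcript at least as long as the median member (8455 bases) it was -0.43 and -0.60. The replicate 3 mice at P21 had a median over the members of -0.25 in WT (36 below) and -0.23 in KO (41 below), with -0.29 and -0.24 over the long genes. Members have long transcripts: their longest coding transcripts ranged from 3782 (Ctcf) to 19823 bases (Kmt2d), against a median of 3004 over all genes tested. Their GC content differed too. It was 56.1% for Chd3, 55.85% for Smarca4 and 59.6% for Kdm6b. Of members below all 4 other mice in both P70 animals, Med13 held 40.5%, Tcf4 40.9% and Nipbl 42.4%. Kmt2d (58.4%), Phf2 (57.1%) and Arid1a (56.7%) were also below all 4 in both. Length and GC content were not told apart. Of the cell type marker sums, those of ependyma and choroid plexus (26485 and 26697 normalized counts), immature neurons (14697 and 16225) and endothelium (4946 and 5093) were the highest of their groups in the P70 replicate 5 WT and KO mice, and those of astrocytes (111868 and 102457) were the lowest. Whether these mice differ in biology, RNA quality or library was not tested.

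**Figure D1:**
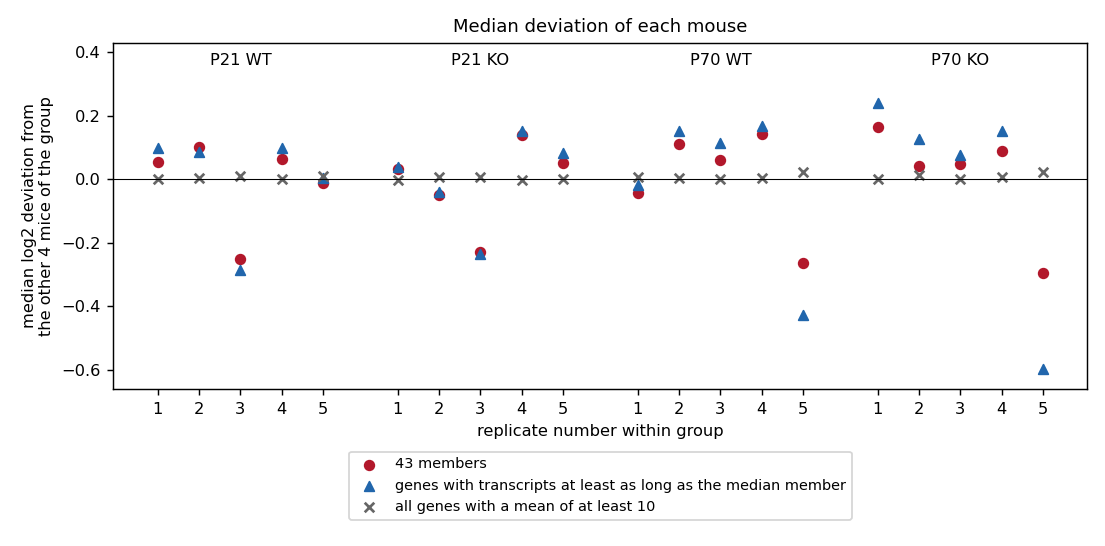
Median log2 deviation of each mouse (x axis, replicate number within group) from the other 4 mice of its group (y axis), over the 43 members (circles), long genes (triangles) and all genes tested (crosses). The replicate 3 mice at P21 and the replicate 5 mice at P70 lie between -0.23 and -0.60 for members and long genes, while all genes stay within 0.03 of 0.

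All members were well expressed. Their means over 20 mice ran from 360 (Asxl3) to 16566 normalized counts (Chd3), the lowest value in any mouse was 177 (Asxl3), and all 43 passed the minimum mean of 10 normalized counts in every comparison. Divided by transcript length to compare genes, the median member stood at 295 normalized counts per kb in P21 WT mice, against 155 over all genes tested, and 41 members were above that median. On this scale Chd3, an ATPase of the NuRD remodeling complex, was highest at 2321 ± 62.8 counts per kb (SD, n = 5), followed by the BAF scaffold Smarcc2 at 1751 ± 122 and the BAF ATPase Smarca2 at 1160.3 ± 88.7. The 2 lowest were Setbp1 at 97.9 ± 8.56 and Asxl3 at 34.5 ± 4.46. The SD is the spread between mice and does not cover the choice of transcript length, so the order of genes is approximate.

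Between P21 and P70, few members were called, and those called were higher at P70. In WT mice 3 of 43 members were called (adjusted p under 0.05, limma with Benjamini-Hochberg adjustment over 17630 genes), all higher at P70: Crebbp, Kmt2d and Phf2. That is 6.98% of the members, beside 4.62% of all genes called higher and 4.7% called lower. In KO mice, which share no animal with the WT comparison, 3 members were called, all higher: Kmt2d, Crebbp and Smarca2, beside 3.78% of all 17641 genes called higher and 4.53% called lower. Crebbp and Kmt2d were called in both genotypes, and 36 of 43 members differed in the same direction in WT and KO. The share of members called was thus close to that of all genes. When log2 values were corrected for transcript length and GC content in each mouse, 9 members were called in each genotype, 8 of them higher in WT and 7 in KO, beside 17.1% and 17.6% of all genes. The calls of lower members were Asxl3 in both genotypes and Setd5 in KO (-0.21, adjusted p = 0.0394).

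Counted without a model, the P21 and P70 values did not overlap for 3 members in WT (Crebbp, Phf2 and Smarcc2) and 3 in KO mice (Crebbp, Kmt2d and Smarca2), all higher at P70, that is 6.98% each beside 10.8% of all genes in WT and 10.9% in KO. The median difference of the members was 0.09 on the log2 scale in WT and 0.08 in KO, against 0.00 and -0.01 over all genes tested. In WT 30 members (69.8%) and in KO 27 (62.8%) were higher at P70, beside 50.2% and 48.0% of all genes. Members varied together within groups, so these counts are not independent agreements. With single mice left out the members' median ran from 0.04 (without P21 mouse 3) to 0.16 (without P70 mouse 5) in WT and from 0.03 (without P21 mouse 3) to 0.12 (without P70 mouse 5) in KO. For 35 of 43 members in each genotype the 95% interval of the difference lay within 0.5 of 0 on the log2 scale.

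**Figure D2:**
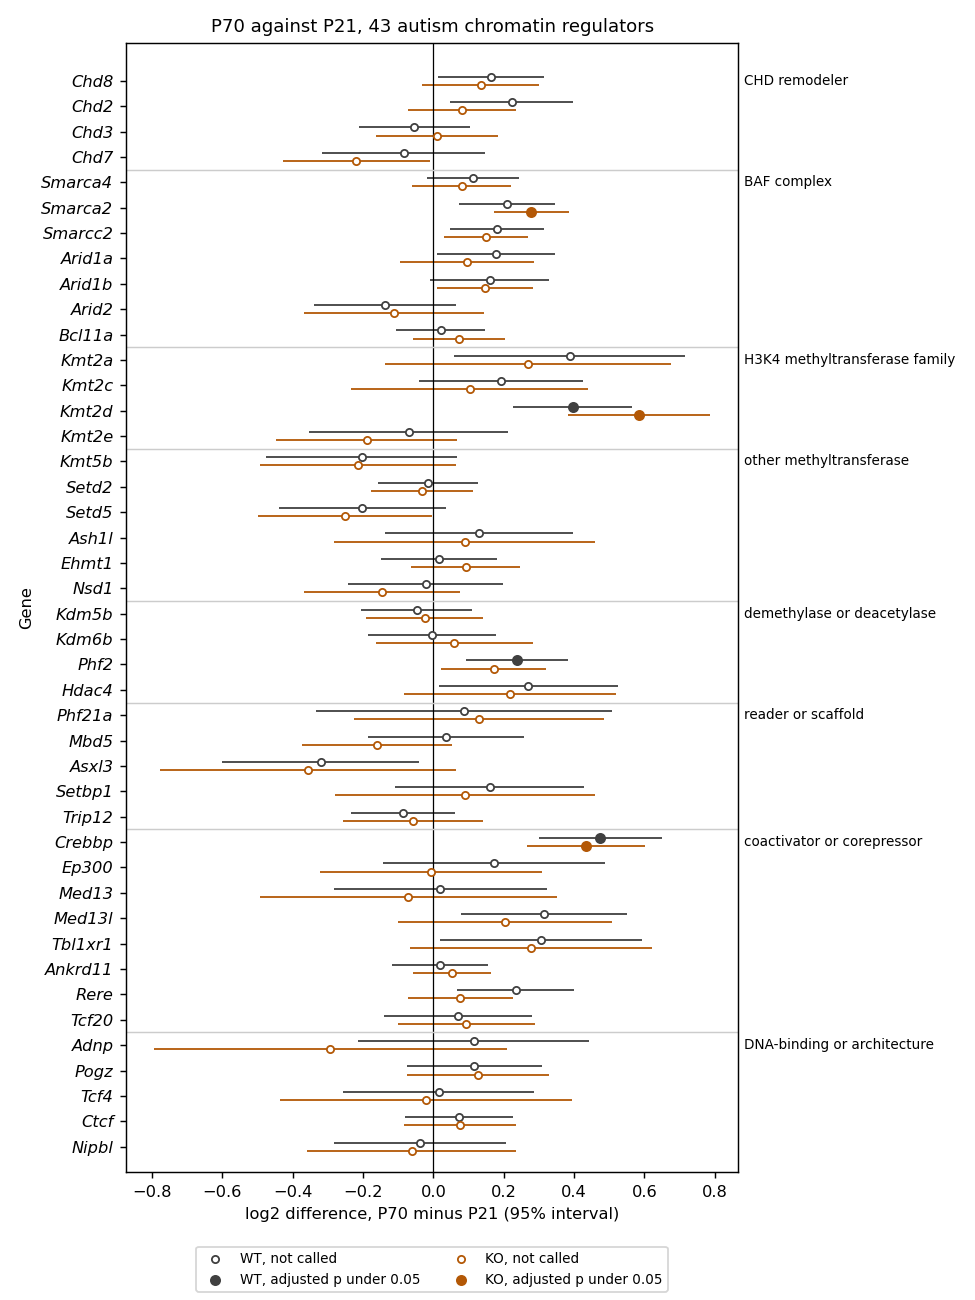
Differences between P70 and P21 (x axis, log2 scale, bars are 95% intervals) for the 43 members by role (y axis), in WT (dark) and KO (orange), with filled points for adjusted p under 0.05. Crebbp and Kmt2d lie at 0.40 or above in both genotypes, while most intervals cross 0.

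Crebbp encodes CBP, an acetyltransferase that opens enhancers and serves CREB in activity-dependent transcription. Crebbp at P21 stood at 2204, 2261, 1734, 2111 and 1942 normalized counts in WT mice 1 to 5 and at 1958, 1966, 1765, 2147 and 2227 in KO mice 1 to 5. Crebbp reached 2667, 3123, 2767, 2939 and 2716 normalized counts in the WT mice at P70 and 3032, 2713, 2586, 2714 and 2529 in the KO mice. Each P70 mouse exceeded every P21 mouse of its genotype, and the log2 difference was 0.47 (standard error 0.08, adjusted p = 0.00277) in WT and 0.43 (standard error 0.08, adjusted p = 0.00466) in KO mice.

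Kmt2d encodes a methyltransferase that places H3K4 monomethylation at enhancers and is mutated in Kabuki syndrome. Kmt2d was measured at 5589.7, 5008, 5026, 4518 and 4647 normalized counts in WT mice 1 to 5 at P21 and at 4722, 4423, 3525, 4676 and 4669.8 in the KO mice. Kmt2d at P70 was 6645, 6901, 6744, 6838 and 5522 in the WT and 7297, 6243, 6888, 6764 and 5752 in the KO mice. The groups did not overlap in KO mice and overlapped in WT mice through WT mouse 5 at P70 and WT mouse 1 at P21. The log2 difference was 0.40 (standard error 0.08, adjusted p = 0.00735) in WT and 0.58 (standard error 0.09, adjusted p = 0.00232) in KO mice. With the length and GC correction the WT difference was 0.24 and the adjusted p 0.0694, or 0.0470 with a replicate block added.

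The promoters of these 2 members are shown because they were called between ages in both genotypes. Each window holds 250 bases before and 50 after the start listed by RefSeq (GRCm38.p6), 5′ to 3′ on the minus strand, with the GC box GGGCGG, or CCGCCC on the other strand, in capitals.

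Kmt2d, chr15:98871156-98871455: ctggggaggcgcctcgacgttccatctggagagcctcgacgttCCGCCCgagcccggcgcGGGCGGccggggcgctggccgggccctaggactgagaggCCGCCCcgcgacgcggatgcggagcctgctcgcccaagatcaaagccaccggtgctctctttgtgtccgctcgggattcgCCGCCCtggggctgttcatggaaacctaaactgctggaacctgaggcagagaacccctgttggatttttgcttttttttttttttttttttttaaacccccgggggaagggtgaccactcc
Crebbp, chr16:4213355-4213654: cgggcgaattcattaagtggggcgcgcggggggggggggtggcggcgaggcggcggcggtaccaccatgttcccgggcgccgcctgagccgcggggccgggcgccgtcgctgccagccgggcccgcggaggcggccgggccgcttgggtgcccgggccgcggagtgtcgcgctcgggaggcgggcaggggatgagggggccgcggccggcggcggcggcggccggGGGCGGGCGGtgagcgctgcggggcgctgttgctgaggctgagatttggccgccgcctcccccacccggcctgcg

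In GENCODE M21 on the same build, Kmt2d spans chr15:98831669-98871204 and Crebbp chr16:4081328-4213997, so the last bases of the Kmt2d window and the whole Crebbp window lie inside the annotated gene. The Kmt2d window holds 27 CpG dinucleotides and the Crebbp window 49. A window was given for 31 of the 43 members, and these held a median of 31 CpG (range 1 to 63) and 70.3% GC, against 20 CpG and 60.3% GC over the 12480 genes of the expression table with a mean of at least 10 and a window. GGGCGG on either strand was present in 28 of 31 member windows (90.3%) and 61.3% of all. The letters CCAAT were in 5 (16.1%) against 38.5%, and TATAAA in 0 against 7.42%. These are matches of letters, searched on both strands, and not binding sites.

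Phf2 encodes a demethylase of H3K9. Phf2 at P21 stood at 1589.6, 1687, 1461, 1613 and 1747 normalized counts in WT mice 1 to 5 and at 1676, 1655, 1603, 1711 and 1589 in KO mice 1 to 5. Phf2 reached 1979, 1992, 1857, 1952 and 1766 normalized counts in the WT mice at P70 and 1943, 1958, 1820.0, 1962 and 1612 in the KO mice. Every P70 WT mouse was above every P21 WT mouse, whereas KO mouse 5 at P70 lay among the P21 values. The log2 difference was 0.24 (standard error 0.07, adjusted p = 0.0417) in WT and 0.17 (standard error 0.07, adjusted p = 0.159) in KO mice. The WT call was the least firm of the 3: it was lost when any one of 8 of the 10 mice was left out (adjusted p from 0.0598 to 0.102), and with the length and GC correction, where the difference was 0.16 (adjusted p = 0.118).

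Smarca2 encodes BRM, 1 of the 2 alternative ATPases that drive BAF. Smarca2 was measured at 7026, 6348, 7698, 6547 and 6733 normalized counts in WT mice 1 to 5 at P21 and at 6696, 6768, 6508, 6896 and 6823 in the KO mice. Smarca2 at P70 was 7694, 8297, 7612, 8043 and 8004 in the WT and 7932, 8207, 8056, 8331 and 8346 in the KO mice. All 5 KO mice at P70 were above all 5 KO mice at P21, and in WT only P21 mouse 3 reached the P70 range. The log2 difference was 0.28 (standard error 0.05, adjusted p = 0.0043) in KO and 0.21 (standard error 0.06, adjusted p = 0.0536) in WT mice. In WT it was called without replicate 5 at P70 (adjusted p = 0.0280) and without replicate 3 at P21. It was also called with a minimum mean of 50 (0.0490) and with all 20 mice in one fit. It was not called with quantile normalization (difference 0.16, adjusted p = 0.145), without the intensity trend (0.0941) or with equal column sums (0.0600). With the length and GC correction the adjusted p in WT was 0.0554.

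**Figure D3:**
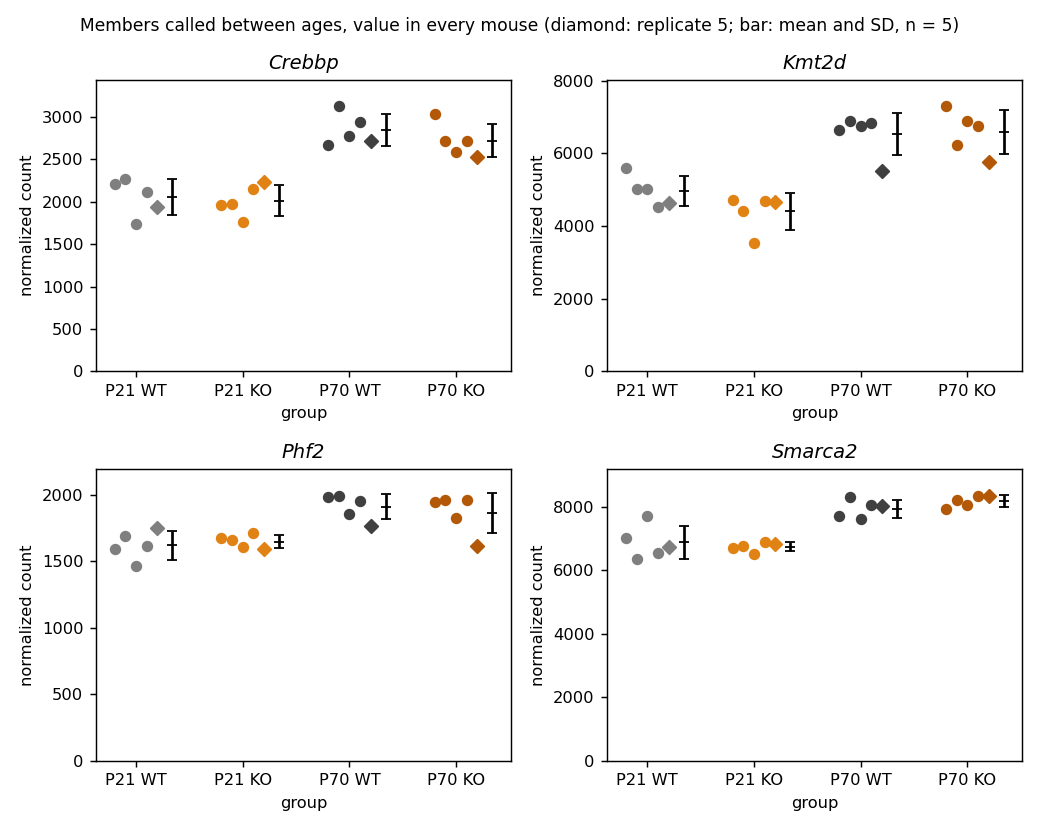
Normalized counts of Crebbp, Kmt2d, Phf2 and Smarca2 (y axes, from 0) in every mouse of the 4 groups (x axes), with diamonds for replicate 5 and bars for the mean and SD of 5 mice. For each gene both P70 means lie above both P21 means, and replicate 5 is the lowest P70 mouse for Kmt2d and Phf2 in both genotypes.

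The 4 CHD remodelers, ATP-driven enzymes that slide or evict nucleosomes, gave no call. All differences between ages are log2 values, P70 minus P21, given for WT first. Chd8, mutated in a form of autism with macrocephaly, differed by 0.16 in WT and 0.13 in KO, Chd3 by -0.05 and 0.01, and Chd2 by 0.22 and 0.08. Chd7, the gene of CHARGE syndrome, was at -0.08 in WT and -0.22 in KO. Chd3 was 15112 to 15732 normalized counts in the first 4 P70 WT mice, below all 5 P21 WT mice (16400 to 17359), and 19697 in the fifth.

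The other 6 BAF members, apart from Smarca2, also gave no call. Smarca4 encodes BRG1, the alternative ATPase to BRM. Smarca4 at P21 stood at 4756, 5050.2, 4421, 5042 and 4694 normalized counts in WT mice 1 to 5 and at 4961, 4871, 4671, 5122 and 4731 in KO mice 1 to 5. Smarca4 reached 5013, 5010.5, 4986, 5405 and 5495 normalized counts in the WT mice at P70 and 5088, 4839, 4895, 5124 and 5852 in the KO mice. The highest P70 mouse was replicate 5 in both genotypes, and the log2 difference was 0.11 in WT and 0.08 in KO. Arid1a and Arid1b encode mutually exclusive subunits that target canonical BAF to DNA. Arid1a was measured at 4193, 4061, 3358, 3967 and 3887 normalized counts in WT mice 1 to 5 at P21 and at 4122, 3809, 3391, 4378 and 4207 in the KO mice. Arid1a at P70 was 4279, 5021, 4356, 4422 and 3961 in the WT and 4500.3, 4282, 4273, 4613 and 3601 in the KO mice. Mouse 5 was the lowest P70 mouse in both genotypes, as it was for Arid1b. Arid1b at P21 stood at 2448, 2396, 2095, 2254 and 2327 normalized counts in WT mice 1 to 5 and at 2279, 2277, 2099, 2331 and 2273 in KO mice 1 to 5. Arid1b reached 2424, 2582, 2906, 2753 and 2240.0 normalized counts in the WT mice at P70 and 2588, 2490.5, 2623, 2527 and 2243 in the KO mice. For both genes the ages overlapped in each genotype, with differences of 0.18 and 0.16 in WT and 0.10 and 0.15 in KO. Smarcc2 differed by 0.18 (adjusted p = 0.0876) in WT and 0.15 in KO, Arid2, a subunit of the PBAF form, by -0.14 and -0.11, and the zinc finger protein Bcl11a by 0.02 and 0.07.

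Within the H3K4 methyltransferase family, Kmt2a (MLL1) differed by 0.39 in WT (adjusted p = 0.133) and 0.27 in KO, with values from 3711 to 6758 normalized counts in P21 WT and from 5758 to 8715 in P70 WT mice. Kmt2c is the partner paralog of Kmt2d at enhancers. Kmt2c was measured at 3914, 3735, 3155, 3864 and 3541 normalized counts in WT mice 1 to 5 at P21 and at 3795, 3479, 3121, 3938 and 3900.4 in the KO mice. Kmt2c at P70 was 4357, 4685, 4412, 4469 and 3063 in the WT and 4510.4, 4346, 4057, 4645 and 2452 in the KO mice. The first 4 P70 mice of each genotype were above all 5 P21 mice and mouse 5 was below them all, so the difference was 0.19 in WT and 0.10 in KO. Kmt2e, a family member without known catalytic activity, was at -0.07 and -0.19.

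The 6 other methyltransferases ranged from -0.20 to 0.13 in WT and from -0.25 to 0.09 in KO with 0 called. They were Kmt5b, which acts on H4K20 (-0.20 in WT and -0.21 in KO), Setd2, which trimethylates H3K36 (-0.01 and -0.03), and Setd5, a SET-domain protein (-0.20 and -0.25). The set also held Ash1l (0.13 and 0.09) and Nsd1 (-0.02 and -0.15), both H3K36 enzymes, and Ehmt1, which acts on H3K9 (0.02 and 0.09). Among demethylases and deacetylases, the H3K4 demethylase Kdm5b was at -0.05 and -0.02, the H3K27 demethylase Kdm6b at 0.00 and 0.06, and the class IIa deacetylase Hdac4 at 0.27 and 0.22 (adjusted p = 0.178 and 0.394).

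Among readers and scaffolds, Asxl3, a partner of the H2A deubiquitinase Bap1, had the lowest difference of all members in both genotypes, -0.32 in WT (adjusted p = 0.146) and -0.36 in KO (adjusted p = 0.304). With the length and GC correction it was called lower in both, at -0.33 (adjusted p = 0.00632) and -0.31 (adjusted p = 0.0496), and with a replicate block added in WT alone. It ranged from 320 to 448 normalized counts in P21 WT and from 239 to 371 in P70 WT mice. Phf21a, which reads unmethylated H3K4, differed by 0.09 and 0.13, Mbd5 by 0.04 and -0.16, Setbp1 by 0.16 and 0.09, and the ubiquitin ligase Trip12 by -0.09 and -0.06.

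All 8 coactivators and corepressors were higher at P70 in WT by estimate and 6 of 8 were in KO, though only Crebbp was called. Ep300 encodes p300, the close paralog of CBP. Ep300 at P21 stood at 2765, 2876, 1704, 2749.8 and 2712 normalized counts in WT mice 1 to 5 and at 2512, 2652, 2352, 2817 and 3379.9 in KO mice 1 to 5. Ep300 reached 2695, 3104, 3269.5, 3099 and 2159.8 normalized counts in the WT mice at P70 and 3601, 2826, 2746, 2707 and 1932 in the KO mice. It overlapped between ages and differed by 0.17 in WT and -0.01 in KO. Med13 and Med13l encode alternative links between the kinase module and the core of Mediator. Med13 was measured at 2605, 2559, 2152, 2702 and 2428 normalized counts in WT mice 1 to 5 at P21 and at 2519, 2512, 2062, 2751 and 2454 in the KO mice. Med13 at P70 was 2665, 2952, 2759, 2863 and 1623 in the WT and 2825, 2808, 2592, 2647 and 1262 in the KO mice. Mouse 5 was the lowest P70 mouse of each genotype, and the same holds for Med13l. Med13l at P21 stood at 3054, 2996, 2207, 2963 and 2781 normalized counts in WT mice 1 to 5 and at 3046, 2782, 2332, 2953 and 3014 in KO mice 1 to 5. Med13l reached 3376, 3772, 3642, 3900.0 and 2736 normalized counts in the WT mice at P70 and 3677, 3434, 3365, 3838 and 2186 in the KO mice. Med13 differed by 0.02 in WT and -0.07 in KO, and Med13l by 0.31 (adjusted p = 0.0915) and 0.20. The corepressor subunit Tbl1xr1 differed by 0.31 and 0.28, Rere (atrophin 2) by 0.23 and 0.08, Ankrd11, a regulator that binds deacetylases, by 0.02 and 0.05, and Tcf20 by 0.07 and 0.09.

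None of the 5 DNA-binding and architectural members was called between ages. Tcf4, an E protein that pairs with proneural factors, was at 0.01 in WT and -0.02 in KO, Ctcf, the insulator protein, at 0.07 in each, and the cohesin loader Nipbl at -0.04 and -0.06. The heterochromatin protein Pogz was at 0.12 and 0.13. Adnp was at 0.11 in WT and -0.29 in KO, and it had the largest spread of all members in P70 KO mice (SD 0.56 on the log2 scale).

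Without the replicate 5 mice at P70, the spread of the members at P70 shrank and more were called. Their median within-group SD on the log2 scale went from 0.16 to 0.09 in WT and from 0.18 to 0.09 in KO. In WT 16 members were then called, 15 higher and Chd3 lower, beside 17% of all genes, and in KO 12 members were called, all higher, beside 21.3%. All 12 called in KO were also among the 16 in WT: Kmt2a, Kmt2c, Kmt2d, Ash1l, Crebbp, Med13l, Tbl1xr1, Smarca2, Smarcc2, Arid1b, Hdac4 and Phf2. The other WT calls were Arid1a, Setbp1, Chd2 and Chd3. The replicate 5 mice had been singled out by low values of most of these same members. Leaving them out therefore raises most members at P70, and neither list is independent of that choice. Without the replicate 3 mouse at P21, low in the same way, only Crebbp, Smarca2 and Kmt2d were called in each genotype.

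Ratios between paralogs within a mouse do not depend on the scaling of libraries. They can still carry shifts that go with transcript length or GC content, for which no ratio was corrected. Med13 held 40.5% GC and Med13l 51.7%, Kmt2c 47.6% and Kmt2d 58.4%, while Crebbp held 51.7% and Ep300 51.1%. Of 5 pairs in 4 comparisons, 0 of 20 exact two-sided permutation tests passed after Benjamini-Hochberg adjustment (smallest adjusted p = 0.0529), and 5 against 5 mice cannot give an exact p below 0.00794. The log2 ratio of Crebbp to Ep300 was -0.30 ± 0.19 (SD, n = 5) in P21 WT and 0.00 ± 0.21 in P70 WT mice, a difference of 0.30 (exact p = 0.0476, adjusted p = 0.159). In KO it went from -0.44 ± 0.09 to 0.00 ± 0.24, without overlap (exact permutation p = 0.00794, adjusted p = 0.0529). Med13 to Med13l went from -0.16 ± 0.08 to -0.46 ± 0.17 in WT, without overlap (exact permutation p = 0.00794, adjusted p = 0.0529), and from -0.20 ± 0.08 to -0.47 ± 0.20 in KO (exact permutation p = 0.0159, adjusted p = 0.0635). Kmt2c to Kmt2d differed by -0.20 in WT (exact permutation p = 0.0635, adjusted p = 0.159) and by -0.48 in KO, without overlap (exact permutation p = 0.00794, adjusted p = 0.0529). Smarca2 to Smarca4 differed by 0.10 in WT (exact permutation p = 0.294) and 0.20 in KO (exact permutation p = 0.0159, adjusted p = 0.0635), while Arid1a to Arid1b differed by 0.02 and -0.05. Replicate 5 lay at an end of the P70 range for Crebbp to Ep300, Med13 to Med13l and Kmt2c to Kmt2d in both genotypes, on the side away from P21, and for Smarca2 to Smarca4 it was the lowest P70 mouse in both, on the side of P21. Without it, an alternative added after seeing the data, the differences were 0.22 and 0.34 for Crebbp to Ep300, -0.22 and -0.20 for Med13 to Med13l, -0.15 and -0.36 for Kmt2c to Kmt2d, and 0.11 and 0.24 for Smarca2 to Smarca4, in WT and KO.

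**Figure D4:**
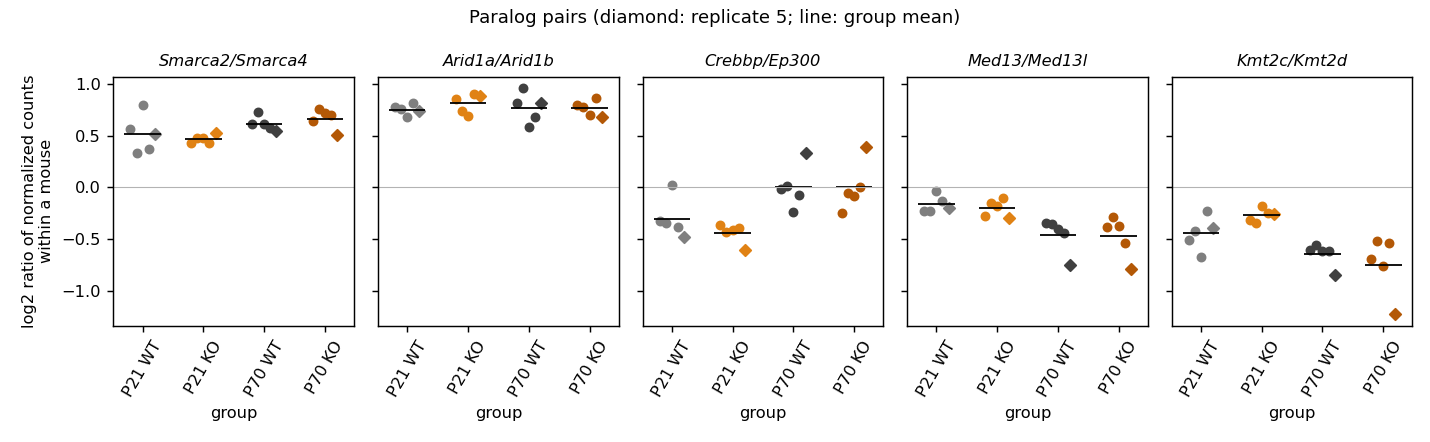
Log2 ratio of normalized counts of 5 paralog pairs (y axis) in each mouse of the 4 groups (x axis), with diamonds for replicate 5 and lines for group means. Crebbp to Ep300 moves from about -0.30 and -0.44 at P21 to 0.00 at P70, and Arid1a to Arid1b keeps group means between 0.75 and 0.82.

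Between KO and WT, 0 of 43 members were called at either age, where 0% of 17610 genes at P21 and 0% of 17613 at P70 were called. The paper, with DESeq2, reported small sets of differentially expressed genes at both ages. It also reported negative enrichment of most ASD-risk gene sets at P70, from a test over ranked genes that was not run here. The absence of calls in this fit therefore does not show that the genotypes were equal. At an unadjusted p under 0.05 from limma, 1 member (Ehmt1) passed at P21 and 0 at P70, beside 2.44% and 1.13% of all genes. With a replicate block 2 members passed at each age, beside 4.16% and 3.46% of all genes. The KO and WT values did not overlap for 0 of 43 members at either age, beside 0.46% of all genes at P21 and 0.193% at P70. With shares that low, this count does not set the members apart from other genes. The 95% interval of the difference lay within 0.5 of 0 for 42 members at P21 and 37 at P70.

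At P21 the 3 members with the smallest p were Ehmt1, Kmt2d and Bcl11a. Ehmt1 was measured at 1142, 1271, 1299, 1111 and 1143 normalized counts in WT mice 1 to 5 at P21 and at 1101, 1084, 1096, 1082 and 1111 in the KO mice. Ehmt1 at P70 was 1142, 1113, 1253, 1358 and 1169 in the WT and 1132, 1011, 1275, 1211 and 1225 in the KO mice. At P21, 4 of 5 KO mice were below every WT mouse and KO mouse 5 was level with the lowest, WT mouse 4. The log2 difference was -0.12 (exact permutation p = 0.0159, adjusted p = 1 from limma), against -0.04 at P70. Kmt2d was at 4958 ± 417 in WT and 4403 ± 505 in KO mice at P21 (SD, n = 5), a difference of -0.18 (exact permutation p = 0.0794), and at 0.01 at P70. Bcl11a at P21 stood at 2031, 1984, 2194, 2050.2 and 2118 normalized counts in WT mice 1 to 5 and at 1954, 1899.8, 2012, 2060.4 and 1929 in KO mice 1 to 5. Bcl11a reached 2086, 2185, 1982, 2179 and 2096 normalized counts in the WT mice at P70 and 2252, 1988, 2118, 1953 and 2067 in the KO mice. Bcl11a overlapped between genotypes at both ages, with differences of -0.07 (exact permutation p = 0.0556) and -0.02.

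At P70 the 3 with the smallest p were Chd2, Rere and Chd7. Chd2 was measured at 2088, 2316, 1876, 2269 and 1833 normalized counts in WT mice 1 to 5 at P21 and at 2164, 1951, 2022, 2172 and 1909 in the KO mice. Chd2 at P70 was 2300.3, 2527, 2604, 2439 and 2213 in the WT and 2163, 2298, 2229, 2241 and 1894 in the KO mice. All 5 KO mice at P70 were below 4 of the 5 WT mice, and the difference was -0.16 (exact permutation p = 0.0476, adjusted p = 1 from limma). Rere at P21 stood at 5638, 5599, 4428, 4888 and 5558 normalized counts in WT mice 1 to 5 and at 5627, 5452, 4829, 5643 and 5928 in KO mice 1 to 5. Rere reached 5612, 6004, 6186, 6611 and 6195 normalized counts in the WT mice at P70 and 6186, 5774, 5612, 6004 and 5377 in the KO mice. Rere encodes a corepressor of the atrophin family. Chd7 was measured at 1805, 2320.0, 1691, 2118 and 1677 normalized counts in WT mice 1 to 5 at P21 and at 2105, 1814, 1719, 2187 and 1899 in the KO mice. Chd7 at P70 was 1693, 1951, 1867, 2031 and 1498 in the WT and 1498, 1540.3, 1839, 1946 and 1546 in the KO mice. Both overlapped between genotypes at each age, and at P70 Rere differed by -0.08 (exact permutation p = 0.175) and Chd7 by -0.11 (exact permutation p = 0.31).

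**Figure D5:**
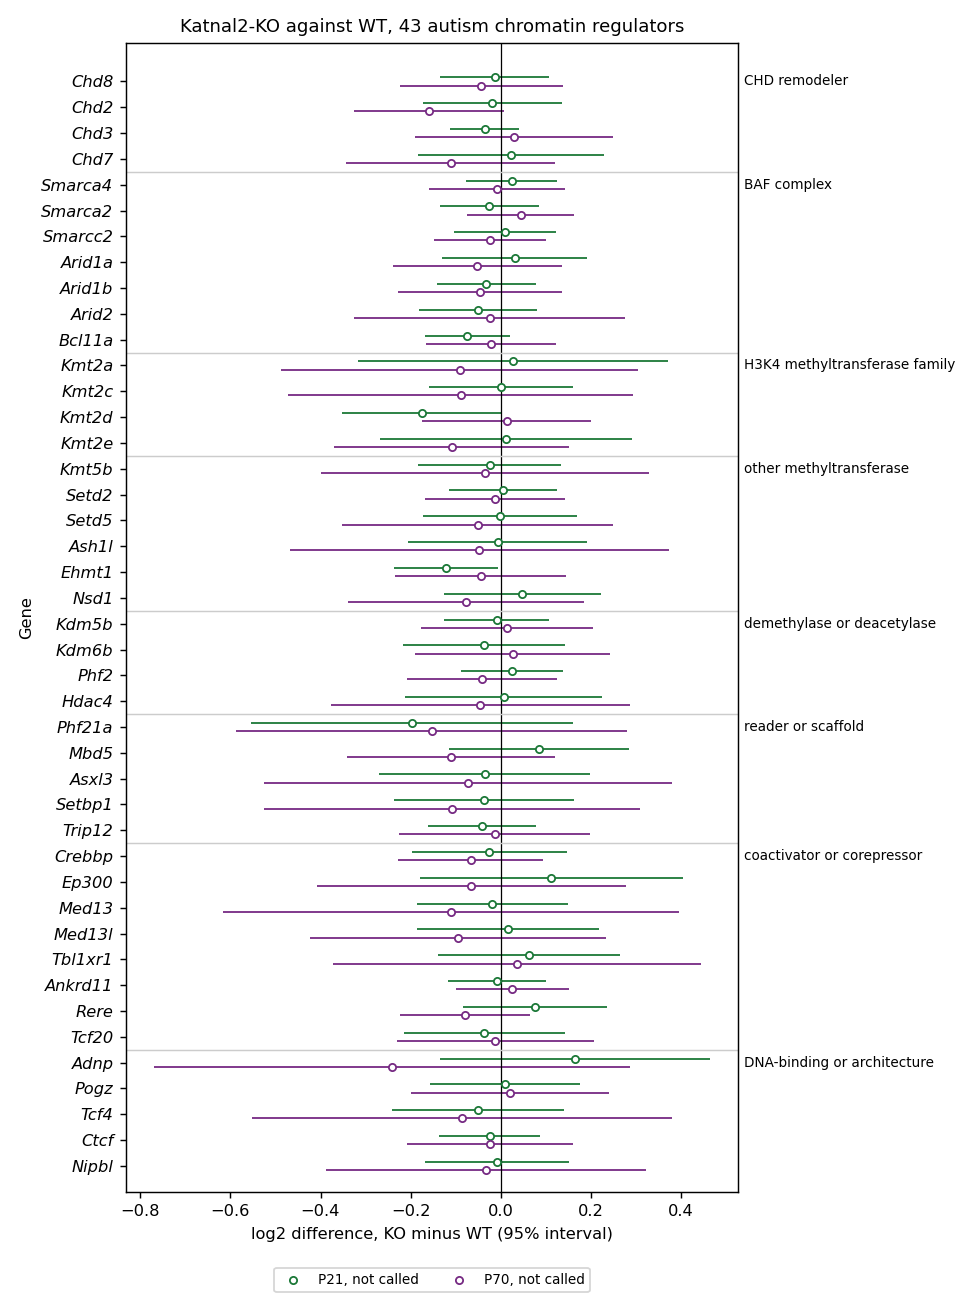
Differences between KO and WT (x axis, log2 scale, bars are 95% intervals) for the 43 members by role (y axis) at P21 (green) and P70 (purple). None is called, and the estimates lie between -0.24 and 0.17.

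The members' median KO minus WT difference was -0.01 at P21, where 18 were higher in KO, and -0.05 at P70, where 8 were higher and 35 lower. Over all genes tested the median was 0.00 at both ages, and 52.5% of genes at P21 and 47.8% at P70 were higher in KO. The direction of the members' median turned with single mice at both ages. At P21 the median was 0.03 with 30 higher without KO mouse 3 and -0.05 with 6 higher without WT mouse 3, and it was also above 0 when KO mouse 2 or WT mouse 1, 2 or 4 was left out. At P70, without KO mouse 5 the members' median was 0.03 with 27 higher, without WT mouse 5 it was -0.09 with 6 higher, and without both it was -0.02 with 14 higher. With the length and GC correction it was -0.02 with 17 higher. The P70 and P21 genotype differences were compared in 1 fit of all 20 mice, in which 0 of 43 members and 0% of 17637 genes were called, and 0 members beside 1.68% of genes passed an unadjusted p under 0.05. The smallest p values were those of Rere (-0.16), Kmt2d (0.19) and Adnp (-0.41), each with an adjusted p of 1. Adnp at P21 stood at 1331, 1614, 979.5, 1169 and 1385 normalized counts in WT mice 1 to 5 and at 1510.0, 1389, 1061, 1559 and 1745 in KO mice 1 to 5. Adnp reached 1480.1, 1589, 1346, 1655 and 967 normalized counts in the WT mice at P70 and 1654, 1520.5, 1201, 1181 and 615 in the KO mice. Adnp encodes a homeodomain and zinc finger protein of the ChAHP complex, and its P70 KO mice spanned 615 to 1654 normalized counts, from its lowest value in any mouse to just under its highest P70 WT value.

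A wider list of 100 partners of these proteins, in 12 groups, was read in the same fits. In WT 14 of 99 tested partners were called between ages (9 higher and 5 lower, 14.1%), and in KO 6 of 100 (3 higher and 3 lower, 6.0%), beside the shares of all genes given above. Of the BAF subunits of neurons, 1 of 4 rose, Dpf1, by 0.36 in WT and 0.46 in KO, and of 5 subunits of neural progenitor BAF 0 were called. Bcl11b rose by 0.39 in WT among 14 other BAF subunits. Chd5, a neuronal CHD remodeler, rose by 0.31 in WT and 0.37 in KO, the only call among 5.

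Among the enzymes that write opposing marks, Setd1b, an H3K4 methyltransferase, rose by 0.35 in WT, the only call among 14 COMPASS subunits. Of 9 Polycomb repressive complex 2 genes, the accessory subunit Phf1 rose by 0.63 in WT and 0.62 in KO and the catalytic subunit Ezh2 fell by 0.56 and by 0.61. In KO the accessory subunit Jarid2 also fell by 0.25, chosen after its values were seen. Of 8 DNA methylation genes, the de novo methyltransferase Dnmt3a fell by 0.49 in WT and by 0.42 in KO, and Uhrf1, which serves maintenance methylation, fell by 0.81 in WT. The NuRD subunits Mbd3 and Gatad2a rose by 0.36 and 0.31 in WT (2 of 11 called), and the class IIa deacetylase Hdac5 rose by 0.37 in WT. The cohesin loader subunit Mau2 fell by 0.30 (1 of 11), Id2 fell by 0.23 (1 of 6), and 0 of 5 genes of the Mediator kinase module were called. Between KO and WT, and for the change of that difference with age, 0 partners were called.

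Cell type markers moved with age in the same fits. Markers of mature oligodendrocytes were lower at P70 for 7 of 8 genes in each genotype, and their summed level ranged from 392823 to 443562 normalized counts in P21 WT and from 166712 to 190056 in P70 WT mice. Of the oligodendrocyte precursor markers 5 of 6 fell in WT and 4 of 6 in KO, and of the immature neuron markers 3 of 7 fell in each. Of the proliferating cell markers 2 of 8 fell in WT and 3 of 8 in KO. The summed mature neuron markers ranged from 161982 to 167982 in P21 WT and from 166798 to 174298 in P70 WT mice, with 1 gene called higher and 2 lower in WT and 1 each way in KO. Of the endothelial markers 1 of 6 fell in each genotype, and of the ependyma and choroid plexus markers 1 of 6 rose in WT and 0 in KO. None of the 8 astrocyte or 8 microglia markers, or of the 2 listed markers of other tissues, was called in either genotype. In whole brain, a change in the share of a cell type and a change in RNA per cell cannot be told apart, and the part of these markers in the members' differences was not tested. All P21 libraries were compared with all P70 libraries, so anything else that differed between the ages cannot be told apart from age: the estimated depth was 26308000 to 36134000 reads at P21 and 23207000 to 26879000 at P70.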

How the data were processed

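Whole-brain total RNA of 20 mice (TruSeq RNA Sample Prep Kit v2) was quantified by the authors with Salmon 1.1.0 on GRCm38, summarized per gene and scaled with DESeq2 1.26.0 in R 3.6.2, per the labels. The deposited values are a signal, gene counts divided by size factors, and not raw counts, so limma 3.58.1 (R 4.3.3) was run on log2(value + 1) with an intensity trend, on genes with a mean of at least 10 over the mice fitted, with Benjamini-Hochberg adjustment over all of them and a threshold of 0.05. Fold changes are on that log2 scale and understate changes of low genes. Depth was estimated by dividing each column sum by the spacing of its low values. The column sums themselves, which are sums of scaled values and not depths, ran from 27310500 to 28423000. Groups came from the labels. WT was compared with KO at each age, P70 with P21 in each genotype, and the change of the genotype difference with age in 1 fit of all mice; single members and ratios had exact two-sided permutation tests, unadjusted for single members. Age and genotype comparisons share mice. The 2 age comparisons share none.

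Symbols, transcript lengths (longest coding transcript) and coordinates came from GENCODE M21, which matched 19447 of 19463 identifiers. The members, partner lists, marker lists and the rule for named genes were chosen with earlier results of these data known. The rule gives values in every mouse for members called between ages in WT, for 5 paralog pairs and for the 3 members with the smallest p in each genotype comparison; per partner list it names up to 2 genes called in WT, of which 1 is not reported here. All members called in KO are among these. The labels do not say that same-numbered mice are paired. Deviations of same-numbered mice correlated from -0.01 to 0.26 between genotypes at P21 and from 0.07 to 0.71 at P70, and from -0.12 to 0.16 between ages. The highest values between genotypes were those of the mice that stood apart: 0.26 for replicate 3 at P21 and 0.71 for replicate 5 at P70. The other P70 pairs reached at most 0.17. Not every pair was above 0.1 in any comparison (4 of 5 were at P70), so the fits have no replicate block and the block is an alternative. The smallest SD of log2 differences between 2 mice of a group was 0.36, so no pair was identical. Alternatives were other filters, pseudocounts, scalings, a transcript length and GC correction, a replicate block, and each mouse left out.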

Additional observations from a re-analysis of the deposited data

Results flagged for a closer look

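Single mice were flagged where their gap to the nearest mouse of the group, divided by the range of the group, was above 0.71 (Dixon's 95% value for 5 samples). Of 68 checks over the 17 members whose values are given per mouse, 10 were flagged, and 7 of the 10 were replicate 5 mice at P70. Chance flags a single check about 1 time in 20. These checks reuse the same mice and the members varied together, so the checks are not independent and their count is only descriptive.

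At P70 the low mice were WT mouse 5 for Kmt2c (3063 normalized counts), Kmt2d (5522) and Med13 (1623), and KO mouse 5 for Kmt2c (2452), Med13 (1262) and Med13l (2186). KO mouse 5 was high for Smarca4 (5852). At P21 the low mice were KO mouse 3 for Arid1b (2099) and Kmt2d (3525), and WT mouse 3 for Ep300 (1704). The cause was not tested.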

How the results depend on the processing

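The count of members called between ages was 3 in WT and 3 in KO. Corrected for transcript length and GC content it was 9 in each genotype (in WT with Crebbp but without Kmt2d and Phf2), with a replicate block added 5 in each, and with all 20 mice in one fit 6 in WT and 3 in KO. Without both P70 replicate 5 mice it was 16 in WT and 12 in KO. With each mouse left out in turn it ranged from 2 to 16 in WT and from 3 to 12 in KO, the upper end being without replicate 5 at P70 in both. With the replicate block alone it was 2 in WT, where Phf2 was lost (adjusted p = 0.0975), and 3 in KO, and the block changed no other call of a member. Crebbp in both genotypes, and Kmt2d and Smarca2 in KO, were called under every alternative run. Between genotypes, and for the change with age, 0 members were called under every alternative.

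Over all genes the counts of calls were 1643 in WT and 1467 in KO, 3006 and 3105 when corrected for transcript length and GC, 3000 and 3759 without replicate 5 at P70, and in KO 913 with the block and 2474 with block and correction. Without single P21 mice they were as low as 912 in WT (without replicate 4) and 896 in KO (without replicate 4). Between genotypes 1 gene was called at P21 with the correction, or without WT replicate 3 or KO replicate 4, and 1 at P70 without both replicate 5 mice. The causes were not tested. Depth was estimated from the values, and intervals cover the spread between mice.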
